A study of Mus musculus with 8 samples.

Results

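Rgcc, Dusp27 and Enox1 are 3 genes whose mRNA in double knockdown (KD) embryonic stem cells (ESCs) lay far from the level that the single knockdowns would add up to. They were picked for that departure from additive effects, out of 30175 gene names on the array, and each is read by 1 probe. The departure itself is therefore given as a description, with no test. The cells were mouse E14 ESCs, a line derived from the early embryo, grown without feeder cells on gelatin in medium with serum and LIF. Every group was infected with a lentivirus that expresses a short hairpin RNA and was harvested 72 hours later. Control KD cells received a hairpin against GFP, a gene that mouse cells do not have, Tip60 KD cells a hairpin against Tip60 (gene Kat5), Hdac6 KD cells a hairpin against Hdac6, and double KD cells hairpins against both. Each group had 2 biological replicates, A and B, with 1 Agilent single-colour array each. A single hairpin per gene, the most effective of those screened, was used. No uninfected cells are among the 8 arrays, so a response shared by the 3 knockdowns and a property of the control hairpin cannot be told apart.

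Tip60 is the acetyltransferase of the Tip60-p400 complex, which acetylates histone tails and exchanges histone variants at promoters. Hdac6 is a deacetylase, best known from the cytoplasm of differentiated cells, where tubulin is a substrate, and the study asked whether it takes part in gene regulation by Tip60-p400 in ESCs. If the effects of both hairpins were independent and multiplicative, the double KD change would equal the sum of the single changes on the log2 scale. Rgcc encodes the regulator of cell cycle (listed in the array files as 1190002H23Rik), a small protein induced by complement activation and by TGF-beta that binds the cyclin-dependent kinase Cdk1. Dusp27 belongs by sequence to the atypical dual-specificity phosphatases, is thought to lack catalytic activity, and is known from skeletal muscle, where it is needed for sarcomere assembly. Enox1 is an ecto-NOX protein, an enzyme of the outer cell surface that oxidises hydroquinones and NADH and exchanges protein disulfides and thiols.

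The values rest on 1 probe of 60 bases per gene. On mouse build mm9, the coordinates used in the files, the Rgcc probe lies on the minus strand of chromosome 14 at 79688717 to 79688776 and starts at base 694 of its transcript. The Enox1 probe lies on the plus strand of the same chromosome at 78121155 to 78121214, 1.57 Mb from the Rgcc probe, and starts at base 3139. The Dusp27 probe lies on the minus strand of chromosome 1 at 168028972 to 168029031 and starts at base 3272. GC content was 45.0% in the Rgcc and Dusp27 probes and 28.3% in the Enox1 probe, in which 33 of the 60 bases are A.

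The promoters are shown because the 3 genes moved together and 2 of them in the opposite direction to the third. Each is the 250 bases before the transcription start from RefSeq on GRCm38.p6, read 5′ to 3′ on the strand of the gene, and all 3 genes matched by symbol. Capitals mark the GC box GGGCGG or its reverse complement. The TATA box TATAAA, the CCAAT box CCAAT and the E box CACGTG were also searched on both strands and had no match in these windows. The Rgcc promoter is chr14:79301636-79301885, the Dusp27 promoter chr1:166127899-166128148 and the Enox1 promoter chr14:77156513-77156762.
Rgcc promoter: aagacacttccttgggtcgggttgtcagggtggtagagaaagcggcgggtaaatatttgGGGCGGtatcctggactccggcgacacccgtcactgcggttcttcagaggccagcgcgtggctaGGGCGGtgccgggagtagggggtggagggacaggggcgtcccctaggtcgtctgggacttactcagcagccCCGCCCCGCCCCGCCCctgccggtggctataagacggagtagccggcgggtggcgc
Dusp27 promoter: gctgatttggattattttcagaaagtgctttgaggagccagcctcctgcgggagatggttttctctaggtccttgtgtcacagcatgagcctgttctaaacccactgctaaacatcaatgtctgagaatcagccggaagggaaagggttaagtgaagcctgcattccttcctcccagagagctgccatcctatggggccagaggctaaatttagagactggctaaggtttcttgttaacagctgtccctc
Enox1 promoter: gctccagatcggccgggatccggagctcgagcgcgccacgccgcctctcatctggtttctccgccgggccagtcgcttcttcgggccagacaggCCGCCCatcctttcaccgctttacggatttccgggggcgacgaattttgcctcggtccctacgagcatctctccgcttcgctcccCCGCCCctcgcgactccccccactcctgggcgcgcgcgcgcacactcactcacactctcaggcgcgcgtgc
The Rgcc promoter held 5 GC box matches, 3 of which share bases with one another between 56 and 41 bases before the start. The Enox1 promoter held 2 matches and the Dusp27 promoter 0. Of 32851 RefSeq promoters of this length, 32.7% hold at least 1 GC box, 12.4% a TATA box, 33.8% a CCAAT box and 6.02% an E box. Rgcc and Enox1 start in CpG-rich sequence, with 22 and 33 CpG dinucleotides, numbers that 14.8% and 4.0% of all promoters reach. Dusp27 starts in CpG-poor sequence with 2 CpG, a number that 81.2% reach. The CpG-rich promoters are those of the gene that fell and of 1 of the genes that rose.

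The arrays read the knockdowns as labelled. Kat5 changed by -1.35 after Tip60 KD and -1.31 after double KD on the log2 scale (limma adjusted p = 0.00102 and 0.00181), and Hdac6 by -2.49 after Hdac6 KD and -1.87 after double KD (limma adjusted p = 0.000350 and 0.000738). In Tip60 KD, Hdac6 also fell by 0.44 on the brighter of its probes (limma adjusted p = 0.00592), with -0.36 on the other (limma adjusted p = 0.108). Hdac6 was depleted less in double KD, with 27.3% of the control KD level left against 17.8% in Hdac6 KD. On the other probe 28.8% and 18.9% were left, and the departures from additive effects were 1.05 and 0.97. Kat5 had 40.4% left in double KD and 39.2% in Tip60 KD. The part of the weaker Hdac6 depletion in the departures of the 3 genes was not tested. All 9 of 9 ESC markers were well above background on all 8 arrays, while 5 of 7 markers of extraembryonic endoderm and 4 of 8 of skeletal muscle were at the lower limit on every array. The summed level of 6 neural markers was 2.57 to 2.75 times the array's 75th percentile in control KD and 4.79 to 5.05 after Tip60 KD. It was 2.99 to 3.28 after Hdac6 KD and 4.45 to 4.75 after double KD. That of 8 fibroblast markers was 2.64 to 2.73, 3.40 to 3.67, 2.72 to 2.79 and 3.57 to 3.64 in the same order. From control KD to Tip60 KD, Tubb3 went from -0.58 to 1.38 on the log2 scale, Nes from -0.88 to -0.47 and Map2 from -2.17 to -1.60. Sox1 went from -0.15 to -0.14, and Pax6 and Neurod1 lay at or near the lower limit. Thy1 went from 0.55 to 1.02, Col1a1 from -2.42 to -1.45 and Acta2 from -2.03 to -1.59, with the other fibroblast markers at or near the limit. The part of these markers in the results was not tested. The background that the software subtracted had a median of 86.9 to 114 intensity units on the B arrays of control KD, Tip60 KD and Hdac6 KD, against 37.2 to 61.0 on the other 5 arrays, although the negative control spots had nearly equal medians of 33.6 to 37.2. No spot was saturated. In bulk cells, fewer cells that express a gene and less RNA per cell cannot be told apart.

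Rgcc was high in control KD and low in all 3 knockdowns. Levels are log2 of the processed signal over the 75th percentile of its array. On arrays A and B, Rgcc was at 1.42 and 1.43 in control KD, -1.73 and -1.96 after Tip60 KD, -2.05 and -2.15 after Hdac6 KD, and -1.67 and -1.75 after double KD. The raw spots dimmed from 4130 and 3314 intensity units in control KD to between 348 and 496 on the 6 knockdown arrays. Both control arrays stood above all the others, the Hdac6 KD arrays stood below all the others, and the Tip60 KD and double KD arrays overlapped. As a share of control KD, 10.4% of the signal was left after Tip60 KD, 8.68% after Hdac6 KD and 11.4% after double KD. The subtracted background was 1.64% and 4.22% of the raw signal in control KD and 8.06% to 21.1% on the 6 knockdown arrays. Its part in these shares was not tested. The log2 differences from control KD were -3.27 after Tip60 KD and -3.53 after Hdac6 KD (SE 0.0996 each, n = 2 per group).

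Dusp27 showed the opposite pattern. Its level was -2.59 and -2.55 in control KD, -0.03 and -0.17 after Tip60 KD, -0.18 and -0.29 after Hdac6 KD, and -0.68 and -0.75 after double KD. The 4 groups did not overlap, although the lower Tip60 KD and the higher Hdac6 KD array were almost level. Double KD lay between control KD and the single knockdowns, below Tip60 KD by 0.64 and 0.58 on slides A and B and below Hdac6 KD by 0.50 and 0.47. Dusp27 was 5.51-fold of control KD after Tip60 KD, 5.04-fold after Hdac6 KD and 3.61-fold after double KD. The single changes were 2.46 and 2.33 on the log2 scale (SE 0.0873 each, n = 2 per group). In control KD it was dim, with processed signals of 236 and 204 against a lower limit of 217 and 182 on those arrays, and the subtracted background was 16.0% and 38.9% of the raw signal there and 2.37% to 8.89% on the 6 knockdown arrays. The part of the background in the fold was not tested. With the median of the negative control spots as background on every array, the double KD change of Dusp27 was 1.48 in place of 1.85. That setting also used the mean signal in place of the processed signal and its own lower limit, so it does not single out the background.

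Enox1 rose like Dusp27, with less difference between the knockdowns. It was at -1.32 and -1.51 in control KD, 0.78 and 0.54 after Tip60 KD, 1.13 and 0.71 after Hdac6 KD, and 0.80 and 0.40 after double KD. Both control arrays lay below all 6 knockdown arrays, and the arrays of the 3 knockdowns overlapped one another. Replicate A was above replicate B in every group, by 0.19 in control KD up to 0.42 after Hdac6 KD, an offset shared by the arrays of a slide. Within the slides Enox1 was lower after double KD than after Hdac6 KD by 0.32 and 0.31. Enox1 reached 4.23-fold of control KD after Tip60 KD, 5.05-fold after Hdac6 KD and 4.05-fold after double KD. Its single changes were 2.08 and 2.34 on the log2 scale (SE 0.203 each, n = 2 per group).

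**Figure D1:**
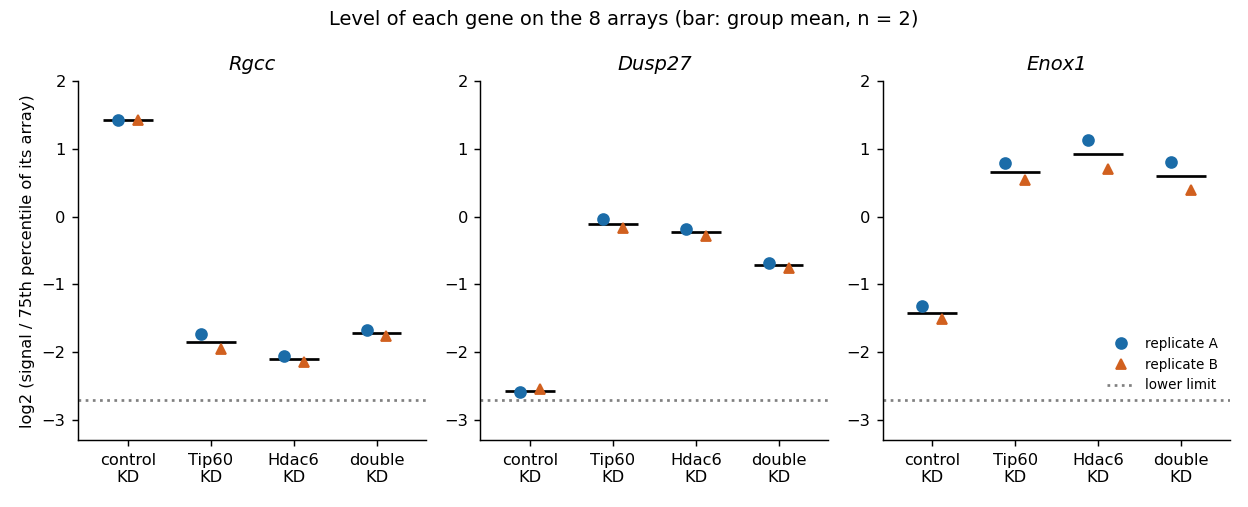
Level of Rgcc, Dusp27 and Enox1 on each of the 8 arrays (y axis: log2 of signal over the array's 75th percentile; circles, replicate A; triangles, replicate B; bars, group means of n = 2; dotted line, the lower limit of -2.71). Control KD stands apart from the 3 knockdowns in each panel, above them for Rgcc (1.42 and 1.43) and below them for Dusp27 and Enox1.

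In all 3 genes the double KD change was 38.6% to 46.2% of the sum of the single changes. For Rgcc the single changes added up to -6.79 and the observed change was -3.14, 46.2% of it, which is a departure of 3.65 (SE 0.141). For Dusp27 they added up to 4.80 and the observed change was 1.85, 38.6% of it, a departure of -2.95 (SE 0.123). For Enox1 they added up to 4.42 and the observed change was 2.02, 45.7% of it, a departure of -2.40 (SE 0.287). The 2 slides, each with 1 array of every group, gave 3.53 and 3.78 for Rgcc, -3.05 and -2.84 for Dusp27, and -2.43 and -2.37 for Enox1. These values chose the genes and carry no test.

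The measuring range bears on the departure of Rgcc. An additive double KD level would have been -5.37, 6.32-fold under the lower limit of -2.71 that was set for all arrays. A double KD level at that limit would by itself have given Rgcc a departure of 2.66. The observed double KD level of -1.71 lay above the limit on both arrays. For Dusp27 and Enox1 the additive levels, 2.23 and 3.00, lay inside the range of the arrays, on which no spot was saturated.

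**Figure D2:**
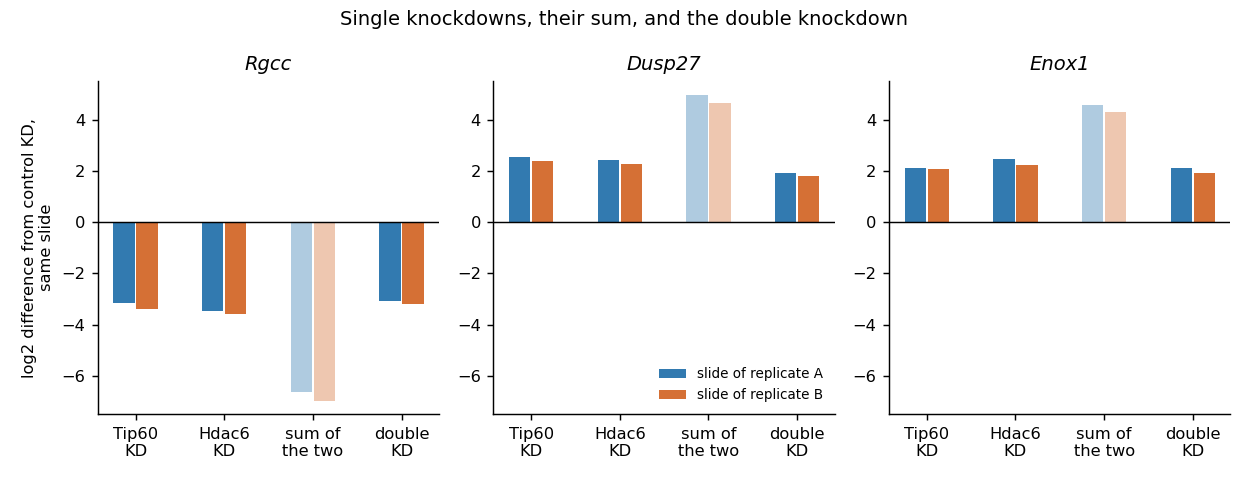
Log2 difference from the control KD array of the same slide after Tip60 KD, Hdac6 KD and double KD, with the sum of the single knockdowns in pale bars (blue, slide of replicate A; orange, slide of replicate B). The double KD bars are about as long as those of a single knockdown and far shorter than the sum, with observed changes of -3.14 against -6.79 for Rgcc, 1.85 against 4.80 for Dusp27 and 2.02 against 4.42 for Enox1.

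Among 22594 probes that passed the filter on dim signals, Rgcc had the second largest positive departure, Dusp27 the largest negative and Enox1 the third largest negative one. The median absolute departure over all probes was 0.30. A probe of Rpl34, a ribosomal protein, had the largest positive value at 4.94. Just after Rgcc came Srsf7, a splicing factor, with 3.56, an unnamed probe with 3.54 and Txnip, the thioredoxin-interacting protein, with 3.20. On the negative side another unnamed probe stood between Dusp27 and Enox1 with -2.53, and Lcmt2, Jrk and Lefty2 followed Enox1 with -2.22, -2.19 and -2.12, the last with 1 array missing.

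The 3 genes shared 1 shape, in which the control KD arrays stood apart from all 6 knockdown arrays. Over the 22389 probes with a value on every array, both control arrays lay above all 6 knockdown arrays for 18.0% and below them for 17.3%. Of the 12 probes with the largest positive departures, 8 had the control arrays above, and of the 12 with the largest negative ones, 11 had them below. The other was Lefty2, which was not counted because it lacked 1 array. Its means were 1.49 in control KD and 3.65, 3.95 and 3.99 after Tip60, Hdac6 and double KD. In 7 of the 8 and in all of the 11 the control mean was farther from the nearest knockdown mean than the knockdown means were from one another, as for the members. The exception was the Rpl34 probe, which, like that of Srsf7, was low after Tip60 KD alone (1.53 and 0.97) and high in control KD, Hdac6 KD and double KD (5.98 to 6.43 and 4.48 to 4.80). The 3 knockdown means spanned 0.39 for Rgcc, 0.61 for Dusp27 and 0.32 for Enox1, against a distance to the control mean of at least 3.14, 1.85 and 2.02. As the departure selects for this shape, these counts describe the probes chosen by it.

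**Figure D3:**
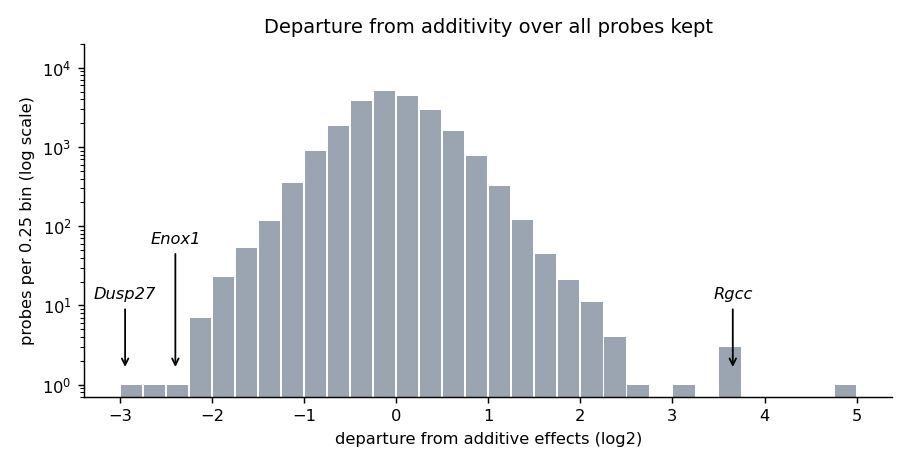
Number of probes (log scale) by departure from additive effects in bins of 0.25 on the log2 scale, over 22594 probes, with arrows at the 3 genes. Dusp27 (-2.95) and Enox1 (-2.40) are at the far left edge and Rgcc (3.65) at the far right, with the Rpl34 probe (4.94) beyond it.

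Double KD against control KD and Tip60 KD against Hdac6 KD were tested. In a design of 4 equal groups their estimation errors are independent of that of the departure. The genes were still chosen from the same arrays, and large departures went mostly with control KD arrays apart from all knockdown arrays. The tests are therefore not separate support for the choice of genes. In double KD, 3 of 3 genes passed an adjusted p under 0.1, against 33.8% of all probes, which describes genes picked in this way. Rgcc was 8.81-fold lower (log2 difference -3.14, SE 0.0996, limma adjusted p = 0.000730). Dusp27 was 3.61-fold higher (1.85, SE 0.0873, limma adjusted p = 0.000738) and Enox1 4.05-fold higher (2.02, SE 0.203, limma adjusted p = 0.00267). All 3 held their direction and stayed past the threshold when any 1 array was left out, with limma adjusted p up to 0.0234. The highest adjusted p under any alternative was 0.0377, for Enox1 with only the 4 arrays of the 2 groups.

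Between the single knockdowns 0 of 3 genes passed in limma without a block, against 23.9% of all probes, and 1 of 3, Rgcc, had an unadjusted p under 0.05. Rgcc was 0.26 higher after Tip60 KD than after Hdac6 KD (95% interval 0.01 to 0.50, limma adjusted p = 0.148), by 0.32 and 0.19 on the 2 slides. With the replicate letter, which is also the slide, as a block, Rgcc passed (limma adjusted p = 0.0386) and so did Enox1 (limma adjusted p = 0.0530), as did 42.4% of all probes. Enox1 was 0.26 lower after Tip60 KD than after Hdac6 KD (95% interval -0.75 to 0.24, limma adjusted p = 0.511 without the block), by 0.34 and 0.17 on the 2 slides. Without Tip60 KD replicate B the Rgcc difference was 0.37 (limma adjusted p = 0.0980). Dusp27 differed by 0.13 (95% interval -0.09 to 0.34, limma adjusted p = 0.422), and passed in neither fit. The ends of the 3 intervals are smaller than the difference of any of these genes from control KD, which was at least 1.85.

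The genes of nearest profile were ranked by the root mean square (RMS) difference over the 8 arrays, after each probe's own mean was removed, among 17946 other genes with 1 probe each. Nearest to Rgcc was an unnamed probe on chromosome X (RMS 0.18), followed by Txnip (0.43), Gm5091 (0.53), Gstm3, a glutathione S-transferase (0.56), and Ccng2, the cell cycle inhibitor cyclin G2 (0.63). Txnip went from 4.50 in control KD to 1.63 after Tip60 KD, 2.00 after Hdac6 KD and 2.33 after double KD. Ccng2 was at or near the lower limit in all 3 knockdowns (-2.71 to -2.66), from -0.79 in control KD, so its drop is a bound. The median over all genes was 1.48.

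Dusp27 and Enox1 were among each other's 5 nearest genes, at an RMS of 0.24 against medians of 0.99 and 0.96. Both also had Lcmt2, a tRNA-modifying enzyme, and Napsa, an aspartic protease, among their 5. Lcmt2, at 0.18 the nearest to Enox1, rose from -2.00 in control KD to -0.12 after Tip60 KD, -0.01 after Hdac6 KD and -0.36 after double KD. Enox1 further had Atp5g1, a subunit of mitochondrial ATP synthase (0.22), and Setd1b, a histone H3K4 methyltransferase (0.24), and Dusp27 further had 2 unnamed probes (0.21 and 0.24). With its sign turned, the profile of Rgcc differed from that of Dusp27 by 0.52 and from that of Enox1 by 0.55. Of the 5 nearest to Dusp27, 2 remained with normexp, with the negative control background and with the series matrix values. The profiles share the same 8 arrays and are a description. Dusp27 and Enox1 were both picked for large negative departures, which go mostly with control KD arrays below the rest. Their likeness therefore partly follows from that choice and is no separate result. Lcmt2 and Napsa were themselves among the 12 probes with the largest negative departures.

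**Figure D4:**
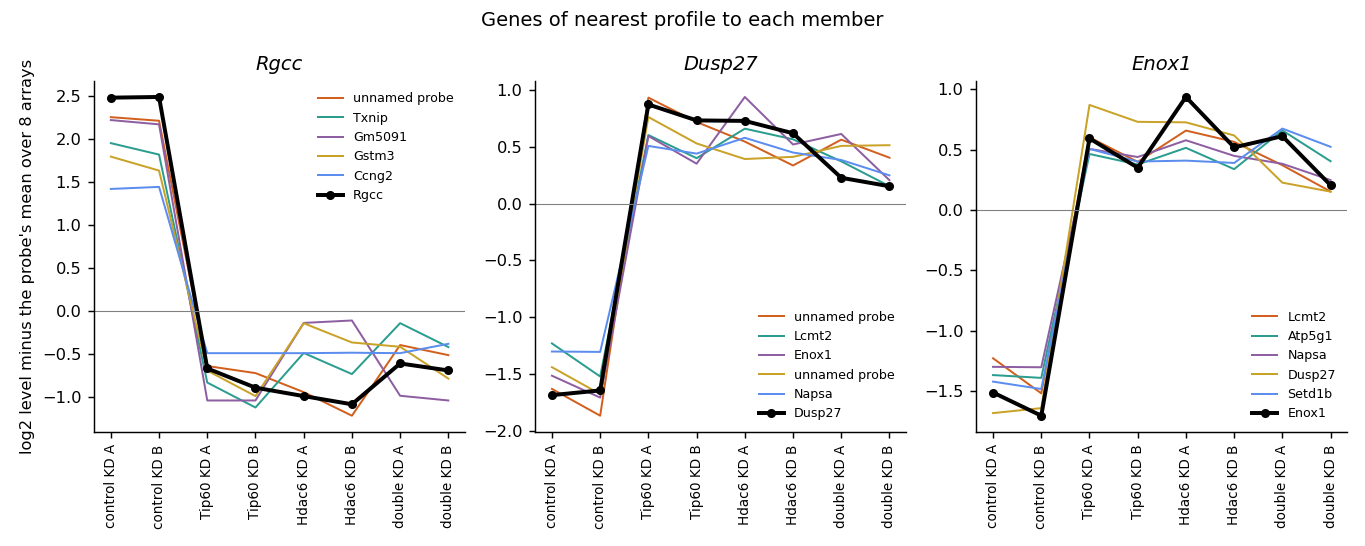
Log2 level minus the probe's own mean over the 8 arrays (x axis: arrays by group and replicate), for each member (black) and its 5 nearest genes (colours). In each panel the change is between the control KD arrays and the rest. That of Rgcc runs in the opposite direction to those of Dusp27 and Enox1 and is larger.

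Other genes of the pathways of the 3 members were read from lists. Of 18 genes of the Cdk1 and cyclin B axis, where Rgcc acts, 1 passed the test as higher and 12 as lower after Tip60 KD, 2 and 4 after Hdac6 KD, and 2 and 9 after double KD; 40.6%, 30.0% and 33.8% of all probes passed in either direction. The median change over the list was -0.38, -0.24 and -0.33 in that order, against 0.07, 0.04 and 0.06 over all probes. The number called, 13, 6 and 11 in either direction, was 6, 2 and 4 without control KD replicate A, 6 after Tip60 KD without its replicate B, 3 and 2 after Hdac6 KD without its replicate A or B, and 4 after double KD without its replicate B. Ccnb2, a cyclin B that partners Cdk1 at mitosis, fell by 0.65 after Tip60 KD and by 0.56 after double KD, with -0.24 after Hdac6 KD (limma adjusted p = 0.00697, 0.0164 and 0.182). Cdk1 itself changed by -0.30, -0.32 and -0.25 after Tip60, Hdac6 and double KD. Ccnb1, the other cyclin B on the list, changed by -0.20, 0.12 and -0.11 in that order. None of these changes of Cdk1 and Ccnb1 passed (limma adjusted p of 0.110 or more). Cdkn1b, an inhibitor of cyclin-dependent kinases, fell by 0.96 after Tip60 KD (limma adjusted p = 0.00929). Of the phosphatases that activate Cdk1, Cdc25b rose by 0.70 after Tip60 KD, while Cdc25a fell by 0.49 and Cdc25c by 0.44 (limma adjusted p = 0.00411, 0.0376 and 0.0307). Departures over the list ran from -0.60 to 0.84 with a median of 0.23.

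Complement activation and TGF-beta are inducers of Rgcc. Of 13 complement genes measured, 1 was higher after Tip60 KD, 2 after Hdac6 KD and 2 after double KD, and 0 were lower in the limma fit (1, 0 and 1 at an unadjusted p under 0.05). These calls are 7.69%, 15.4% and 15.4% of the complement list, against 40.6%, 30.0% and 33.8% of all probes. The median changes over the list were 0.23, 0.03 and 0.17. The double KD count was 1 without any 1 of the 8 arrays, and the Tip60 KD count was 2 without Tip60 KD replicate B or either double KD array and 0 without any of the other 5 arrays. In Hdac6 KD these were Cr1l, a complement regulator on the cell surface, by 0.72, and C1s1, a C1 subcomponent, by 0.69 (limma adjusted p = 0.00800 and 0.00663). Of 12 TGF-beta signalling genes, 1 was higher and 3 were lower after Tip60 KD, 0 and 1 after Hdac6 KD (1 and 1 at an unadjusted p under 0.05 in limma), and 1 and 2 after double KD, with median changes of -0.20, -0.08 and 0.02. The share of the TGF-beta list called was 33.3%, 8.33% and 25%, each below that of all probes. Skil, a corepressor of the pathway, fell by 1.08, 0.67 and 0.86 in the 3 knockdowns, and Tgfbr1, the type I receptor, fell by 0.85 after Tip60 KD and 0.80 after double KD. Skil has a departure of 0.89, the highest of the list.

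Of 17 dual-specificity phosphatases measured, the family of Dusp27, 3 were higher and 4 lower after Tip60 KD, 3 and 2 after Hdac6 KD, and 4 and 6 after double KD. Of the family 41.2%, 29.4% and 58.8% were called, against 40.6%, 30.0% and 33.8% of all probes, and the median changes were 0.05, 0.07 and 0.01. Without control KD replicate A, 6 were called after double KD. Dusp14 rose by 1.19, 0.59 and 0.93, Dusp9, a phosphatase of ERK, fell by 0.57, 0.49 and 0.91, and Dusp1, an immediate early phosphatase of MAP kinases, fell by 0.81, 0.75 and 0.57 after the 3 knockdowns, in the order Tip60, Hdac6, double. Dusp1 had the highest departure of the family, 0.99, and Dusp14 the lowest, -0.85, against -2.95 for Dusp27. Of 19 sarcomere and skeletal muscle genes measured out of 40 on the array, 2 were higher and 3 lower after Tip60 KD, 2 and 3 after Hdac6 KD, and 2 and 2 after double KD, with median changes of 0.03, 0.07 and -0.11. The share of the muscle list called was 26.3%, 26.3% and 21.1%, each below that of all probes. Without control KD replicate A, 2 were called after Tip60 KD and 3 after Hdac6 KD, and 3 were called after Hdac6 KD without its replicate A. Ttn, the giant sarcomere protein titin, was at the lower limit in control KD and rose from it by at least 1.17 after Tip60 KD, 0.50 after Hdac6 KD and 1.43 after double KD on the log2 scale, and Actn3, alpha-actinin 3, rose by 0.80, 0.64 and 0.75. Myh3, embryonic myosin heavy chain, fell by 0.83 after Hdac6 KD and by 0.39 after Tip60 KD. The summed level of the 8 skeletal muscle markers overlapped between the groups, at 4.77 to 7.31 in control KD, 4.83 to 6.47 after Tip60 KD, 4.48 to 8.38 after Hdac6 KD and 6.15 to 8.72 after double KD. Of these markers Myod1, a transcription factor of the muscle lineage, was well above background on all 8 arrays (1.70 to 2.88), while Myf5, Acta1, Ckm and Des were at the lower limit on every array.

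Of 21 genes for plasma membrane redox enzymes and NAD(P)H oxidases, the functional neighbours of Enox1, 7 were higher and 8 lower after Tip60 KD, 3 and 6 after Hdac6 KD, and 5 and 7 after double KD, with median changes of -0.21, -0.03 and -0.13. These are 71.4%, 42.9% and 57.1% of the list, against 40.6%, 30.0% and 33.8% of all probes. The 9 calls after Hdac6 KD were 2 without its replicate B and 5 without control KD replicate B, and the 12 after double KD were 5 without control KD replicate A, 7 without double KD replicate A and 6 without double KD replicate B. Nqo1, a quinone reductase, rose by 0.66, 0.94 and 0.87 in the 3 knockdowns, and Cyba, the p22 subunit of the NADPH oxidases, fell by 1.14, 0.33 and 1.00. Over the 7 lists, with the genes around the members described next, 60 genes were called after Tip60 KD, 39 after Hdac6 KD and 56 after double KD. With the replicate letter as a block the Hdac6 KD count rose to 69, while 61.1%, 53.4% and 55.9% of all probes were then called in the order Tip60, Hdac6, double. With that block 12 genes of the Cdk1 axis were called after Hdac6 KD, 15 redox genes after Hdac6 KD, 9, 5 and 6 complement genes in the same order, and 8, 6 and 6 TGF-beta genes. Without control KD replicate A, 39 list genes were called after Tip60 KD and 30 after double KD.

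The genes around the members were taken by position, as every other named gene with a probe within 1 Mb of a member's probe or between the Enox1 and Rgcc probes. Of 51, 34 were measured, and their departures ran from -0.49 to 1.27, against 3.65, -2.95 and -2.40 for the members. In Tip60 KD 5 were higher and 10 lower, after Hdac6 KD 4 and 7, and after double KD 4 and 10, with median changes of -0.06, 0.04 and -0.04; with the replicate block 17 were called after Hdac6 KD and 23 after double KD. Without the block 44.1%, 32.4% and 41.2% of them were called, against 40.6%, 30.0% and 33.8% of all probes. The Hdac6 KD count was 6 without either control KD array or Hdac6 KD replicate A and 7 without Hdac6 KD replicate B, and the double KD count was 8 without either control KD array and 9 without double KD replicate B. Naa16, an N-terminal acetyltransferase subunit 45.6 kb from the Rgcc probe, fell by 0.95 after Tip60 KD and 0.65 after double KD, with -0.30 after Hdac6 KD (limma adjusted p = 0.00572, 0.0274 and 0.220). Zfp957, 76.4 kb on the other side of it, rose by 0.37, 0.75 and 0.65.

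Mael, a piRNA pathway gene 103 kb from the Dusp27 probe, changed by -1.12 after Tip60 KD, -1.26 after Hdac6 KD and -1.12 after double KD (limma adjusted p = 0.000619, 0.00151 and 0.00115). It had the highest departure of the 34, in the opposite direction to Dusp27. Around Enox1, 1 of the 7 nearest measured genes was called after double KD, Ccdc122 with a fall of 0.49. An unnamed probe 4679 bases from the Dusp27 probe on the same strand was at the lower limit on all 8 arrays and was not tested. None of the 34 genes changed after double KD as much as the member nearest to it.

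**Figure D5:**
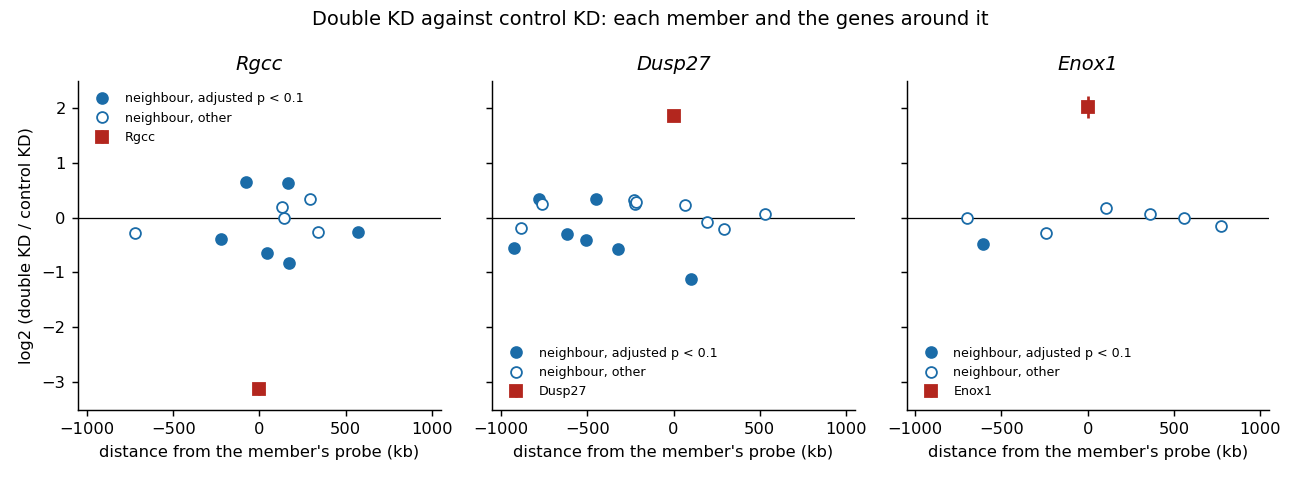
Log2 difference of double KD from control KD (y axis) for each member (red square, with SE) and the genes around it by distance from its probe in kb (blue, filled where the adjusted p was under 0.1). The members stand at -3.14, 1.85 and 2.02, while their neighbours lie between -1.12 and 0.65.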

How the data were processed

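Expression was measured in 8 samples, 2 per group, at 72 hours after infection. Cy3-labelled cRNA made by the authors from total RNA was hybridised to 1-colour Agilent mouse arrays. Per the submitters' processing notes spots were quantified with Agilent Feature Extraction 10.7.1.1. The deposited scanner files hold intensity values of each spot, per the file headers, among them a processed signal from which a background had been subtracted, with no scaling between arrays. On both control KD arrays and Tip60 KD replicate B, the processed signal of the member probes was not just the mean signal minus that background. For Rgcc on control KD replicate A, mean signal, background and processed signal were 4130, 67.8 and 3794. The part of this in the results was not tested. Log2 values of the same arrays were deposited as a series matrix; how they were scaled or centred is not given in the sources used here, and each column ranked the probes as the median spot signal did.

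Outlier spots were set to missing, the spots of a probe averaged, and the processed signal divided by its array's 75th percentile, raised to a lower limit and converted to log2. For each array the lowest signal called well above background was found, and the limit was the largest of these 8 values (0.153 of the percentile, -2.71 on the log2 scale). Probes over the limit and well above background on at least 2 arrays were kept. This left 22594 of 39429 probes and 18116 genes, with 9.14% of values at the limit, and all 3 member probes were kept, each well above background on all 8 arrays. Symbols were updated through RefSeq accessions for 27234 probes. Probe positions are mm9, and promoters GRCm38.p6. Differences were fitted with limma 3.58.1 (lmFit and eBayes, R 4.3.3), all 4 groups in one fit with no block, 2-sided, Benjamini-Hochberg over all kept probes, at an adjusted p under 0.1 (4 residual and 1.90 prior degrees of freedom). The number of arrays limits the precision. The departure is double KD minus Tip60 KD minus Hdac6 KD plus control KD. Lists used each gene's probe of highest mean signal, and no set test was run. Figures were drawn with matplotlib 3.10.9.

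The replicate letter is also the slide, since all 4 groups were hybridised once on each slide, and position on the slide cannot be told apart from group. The pairing by letter was checked on the A minus B differences, which were correlated across probes for each pair of groups (6 correlations, 0.644 to 0.787). The replicates are labelled biological, with no further account of their source.

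The members, lists and rules were chosen with earlier results of these data known. Named genes are Kat5 and Hdac6, the members, the next 3 genes by departure on each side, the 5 genes of nearest profile, and per list up to 4 called genes of largest change. Of the latter, some are given by their counts only. The unnamed probes and those ranked ahead of the members, Zfp957, Ccdc122, Cdk1, Ccnb1, Cdc25a, Cdc25c, Myod1, Myf5, Acta1, Ckm and Des were added after their values were seen. Alternatives were normexp (offset 50) on the mean and background signals, the median of the negative controls as background, quantile normalization, the series matrix values, a lower limit at its lowest value over the arrays, no filter, only probes well above background on all 8 arrays, 1 probe per gene, the replicate block, only the groups compared, and leaving out each array. The steps were tested on simulated data.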

Additional observations from a re-analysis of the deposited data

Results flagged for a closer look

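For 5 effects, both slides moved one way without the other knockdown and both moved the opposite way with it. The genes were chosen by this difference, and the difference was not tested.

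Hdac6 KD lowered Rgcc by 3.53 in cells without Tip60 KD and gave a difference of 0.13 in cells with it (0.06 and 0.20 on the 2 slides). The SE of an Rgcc difference between groups was 0.0996, and its Tip60 KD and double KD arrays overlapped, so the direction of the 0.13 is not settled. Tip60 KD gave Rgcc a difference of -3.27 alone and of 0.39 on top of Hdac6 KD (0.38 and 0.39). For Dusp27, Hdac6 KD gave 2.33 alone and -0.61 on top of Tip60 KD (-0.64 and -0.58), and Tip60 KD gave 2.46 alone and -0.48 on top of Hdac6 KD (-0.50 and -0.47). For Enox1, Tip60 KD gave 2.08 alone and -0.32 on top of Hdac6 KD (-0.32 and -0.31). All values are log2 differences, n = 2 per group, and groups of 2 arrays were too small to look for outlying arrays.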

How the results depend on the processing

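The double KD changes of Rgcc, Dusp27 and Enox1 kept their direction and their side of the threshold under all 10 alternatives. They also kept their direction in all 8 fits without 1 array (Rgcc -3.20 to -2.96, Dusp27 1.33 to 1.89 and Enox1 1.81 to 2.22 over both kinds). Of the 10, only normexp, the negative control background, quantile normalization and the series matrix could move these changes. The others left the values of the 3 probes as they were and bear only on the adjusted p. The departure of Rgcc was 3.31 with normexp and 3.40 with the series matrix, and that of Dusp27 was -2.36 with either, -2.58 with the negative control background and -2.80 with quantile normalization; that of Enox1 moved by less than its spread (-2.40 to -2.19). Without 1 array the departures ran from 3.54 to 3.77, from -3.02 to -2.88 and from -2.61 to -2.19.

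With the replicate block, Tip60 KD differed from Hdac6 KD for Rgcc (0.26, limma adjusted p = 0.0386) and Enox1 (-0.26, limma adjusted p = 0.0530), 12627 probes were called in double KD and 9574 between the single knockdowns, and 69 list genes were called in Hdac6 KD; the block changed no other call of the members or of Kat5 and Hdac6. With only the groups compared, 3333 probes were called between the single knockdowns. With the series matrix 37 list genes were called in double KD. Of the 5 nearest genes of Dusp27, 2 were shared with normexp, with the negative control background and with the series matrix, as were 3 of the 5 of Enox1 with the series matrix.

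Leaving out 1 array gave 4963 to 7143 probes called in double KD (lowest without control KD replicate A) and 2657 to 4852 between the single knockdowns, which fell most without either Hdac6 KD array and moved by over 1.5 times without either Tip60 KD array too (3391 and 3064). Over the lists it gave 39 to 62 genes in Tip60 KD, 23 to 38 in Hdac6 KD and 30 to 49 in double KD. The lowest counts came without control KD replicate A (39 and 30) and without Hdac6 KD replicate B (23), and 35 were called in double KD without its replicate B. The Rgcc difference between the single knockdowns ran from 0.15 to 0.37 and passed without Tip60 KD replicate B. Kat5 and Hdac6 kept their calls throughout. The cause was not tested. Dusp27 in control KD lay close to the lower limit, at -2.59 and -2.55 against -2.71, but none of its values was raised to it. Lowering the limit therefore could not alter its double KD change of 1.85. That change was 1.33 with normexp, 1.48 with the negative control background, 1.69 with quantile normalization and 1.35 with the series matrix.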
